A study of Mus musculus with 25 samples.

Results

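The cytosolic ribosomal proteins of mouse embryonic stem (ES) cells were followed across 12 chemicals, each at 2 doses, during the first days of differentiation. Members were the array probes whose gene symbol begins with Rpl or Rps and a digit, without the Rps6 kinases, pseudogenes and related sequences. The rule gave 89 probes of 61 genes among the 45281 probes of the array, and 77 of them, of 56 genes, passed the filter on low values that is described with the levels. At least 2 of the genes matched by name are not ribosomal proteins: Rps19bp1 (AROS, a regulator of the deacetylase SIRT1) and Rps23rg1, a retrogene derived from Rps23. Rpl7l1, also matched by name, is a nucleolar relative of the ribosomal protein Rpl7.

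RNA was taken from embryoid bodies, the aggregates in which ES cells begin to differentiate, after 48 h of exposure, and each of the 25 conditions was measured on 1 array. The cells, of a C57BL/6 background, came from 1 ES cell line that expresses green fluorescent protein. The line had been grown on fibroblast feeders before the feeders and the self-renewal factor LIF were withdrawn. The solvent control was 1 array of a culture with 0.1% dimethyl sulfoxide (DMSO).

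In the micromolar range the phthalate DEHP and methoprene acid (MPA) were given at 1 and 100 uM, and the drug thalidomide (TMD), the insecticide permethrin (PMT) and the Hedgehog inhibitor cyclopamine (CPM) at 0.1 and 10 uM. In the nanomolar range a hydroxylated polychlorinated biphenyl (PCB), the thyroid hormone triiodothyronine (T3), the glucocorticoid dexamethasone (DEX), the dioxin TCDD, estradiol (E2) and the androgen DHT were given at 1 and 10 nM. Bisphenol A (BPA) was given at 1 and 100 pM. The labels name DHT dehydrotestosterone, and for its lower dose the title reads 1M where the description reads 1 nM, which was used. With no condition replicated, the 2 doses of a chemical stood in for its replicates, and the arrays were compared in 6 groups: DEHP and MPA (4 arrays), TMD, PMT and CPM (6 arrays), PCB (2 arrays), T3, DEX and TCDD (6 arrays), BPA (2 arrays), and E2, DHT and DMSO (5 arrays). E2 and DHT are active hormones and no solvent controls. The authors had normalized the arrays in 2 sets, DMSO, E2, DHT and BPA in one and all other arrays in the other. Comparisons of TMD, PMT and CPM, of DEHP and MPA, and of T3, DEX and TCDD with E2, DHT and DMSO thus lie wholly between the sets. In them set and chemical cannot be told apart. PCB against T3, DEX and TCDD, DEHP and MPA against TMD, PMT and CPM, and BPA against E2, DHT and DMSO lie within 1 set. Dose range also coincides in large part with the groups, and there it cannot be told apart from the chemicals.

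The mammalian ribosome is built from ribosomal RNA and a set of ribosomal proteins, named Rpl in the large subunit and Rps in the small one. Their mRNAs are among the most abundant of a growing cell, and most begin with a C followed by a run of pyrimidines, the terminal oligopyrimidine (TOP) motif, through which mTOR and LARP1 control their translation. A few ribosomal proteins have a second gene, a paralog, whose product can take the same place in the ribosome. Free ribosomal proteins can also act outside the ribosome, several of them by binding MDM2, which stabilizes p53.

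Start-site sequences of 8 members are shown because each holds at least 1 of the letter strings common at ribosomal protein promoters: 7 genes with higher or lower signal and 1, Rpl35, that was not called. Each line gives 60 bases on the strand of the gene, 40 before and 20 from the annotated start (RefSeq, GRCm38.p6). Capitals mark a run of at least 8 C or T bases that opens with C, or, where the printed bases hold no such run, the string CCGGAAG, the core bound by ETS-family factors such as GABP. The lines of Rps10 and Rpl38 hold that string too, left in small letters. Rps3a1, Rpl26, Rps10 and Rpl22l1 had higher signal after TMD, PMT and CPM, and Rps6, Rps26 and one probe of Rpl38 lower signal. Rpl35, which has the longest run of the 8 (18 bases), was not called (−0.04 ± 0.05, log2 difference ± SE, adjusted p = 0.568).
Rps3a1, chr3:86142649-86142708, minus strand: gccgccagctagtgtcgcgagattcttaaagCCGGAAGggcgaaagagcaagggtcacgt
Rpl26, chr11:68901526-68901585, plus strand: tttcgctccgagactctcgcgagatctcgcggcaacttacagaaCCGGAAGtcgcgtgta
Rps10, chr17:27635225-27635284, minus strand: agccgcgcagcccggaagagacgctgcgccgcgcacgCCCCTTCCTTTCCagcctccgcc
Rpl22l1, chr3:28805468-28805527, plus strand: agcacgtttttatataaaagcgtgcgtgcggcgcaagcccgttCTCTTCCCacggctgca
Rps6, chr4:86857348-86857407, minus strand: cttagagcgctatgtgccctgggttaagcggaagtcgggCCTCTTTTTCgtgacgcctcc
Rps26, chr10:128626487-128626546, minus strand: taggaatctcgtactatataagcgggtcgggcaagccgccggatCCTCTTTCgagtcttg
Rpl38, chr11:114668540-114668599, plus strand: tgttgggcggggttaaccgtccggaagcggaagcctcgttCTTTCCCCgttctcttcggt
Rpl35, chr2:39005112-39005171, minus strand: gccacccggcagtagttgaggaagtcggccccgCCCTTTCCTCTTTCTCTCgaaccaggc

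A promoter was held for 48 of the 56 kept genes. Within 30 bases on either side of a start, on the strand of the gene, 25 of the 48 genes (52.1%) had the pyrimidine run, against 20.6% of all 27025 genes. CCGGAAG, searched on both strands of the 300 bases from 250 before to 50 after the start, was found in 19 of the 48 (39.6%) and in 9.93% of all genes, and it can overlap a pyrimidine run read on the opposite strand. TATAAA within the 50 bases before the start, on the strand of the gene, was found in 1 member (2.08%), Rpl22l1, and in 3.15% of all genes. By response to TMD, PMT and CPM, the run was found in 9 of the 19 genes with a probe called higher (47.4%), 9 of the 18 with a probe called lower (50%) and 8 of the 13 with no probe called (61.5%). CCGGAAG was found in 42.1%, 33.3% and 46.2% of the same 3 sets. A gene with probes called both ways is in the first 2 sets. The matches describe letters in these windows and were not tested.

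Signals are given as log2 of the background-corrected, quantile-normalized intensity, so that a difference of 1 is a doubling. A probe was kept when it was detected on at least 2 of the 25 arrays at a detection p under 0.01. Of the 77 kept member probes, 76 were detected on all 25 arrays, and the remaining one, of Rpl14, on 6: 4 of the 6 TMD, PMT and CPM arrays, 1 of the 2 PCB arrays, 1 of the 2 BPA arrays and none of the others. Rpl14 therefore passed the filter through the arrays where it is high, and no fold is given for it. It counts as 1 of the members higher after TMD, PMT and CPM and after PCB. It is also 1 of those lower in the direct comparison of DEHP and MPA with TMD, PMT and CPM, and 1 of those that differed among T3, DEX, TCDD and PCB. Of the 12 probes left out, 11 were detected on no array and 1 on a single array. Rpl6, Rpl17, Rpl39l, Rps20 and Rps23 were left out altogether, and a probe or more of Rpl4, Rpl23, Rpl27a, Rpl37, Rps23rg1 and Rps24. The kept genes were 32 Rpl and 24 Rps genes.

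Members lay at the top of the signal range, where the scanner's scale ends: 25 of the 100 brightest kept probes and 46 of the brightest 500 were members, and per array 8 to 27 member probes exceeded 50000 units while the brightest spot of an array read 59512 to 66735. Signals so near the ceiling compress, and both probes of Rps12, the probes of Rpl9 and Rps29, one of Rps2 and one of Rpl38 stayed above 50000 on every array. Member probes varied little, with a median SD over the 25 arrays of 0.165 in log2 signal, against 0.348 over all 19140 kept probes. The dim, middle and bright members had median SDs of 0.307, 0.159 and 0.0950. A probe can also read processed pseudogenes and paralogs, which ribosomal proteins have in great number, and levels of different probes are therefore not compared.

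**Figure D1:**
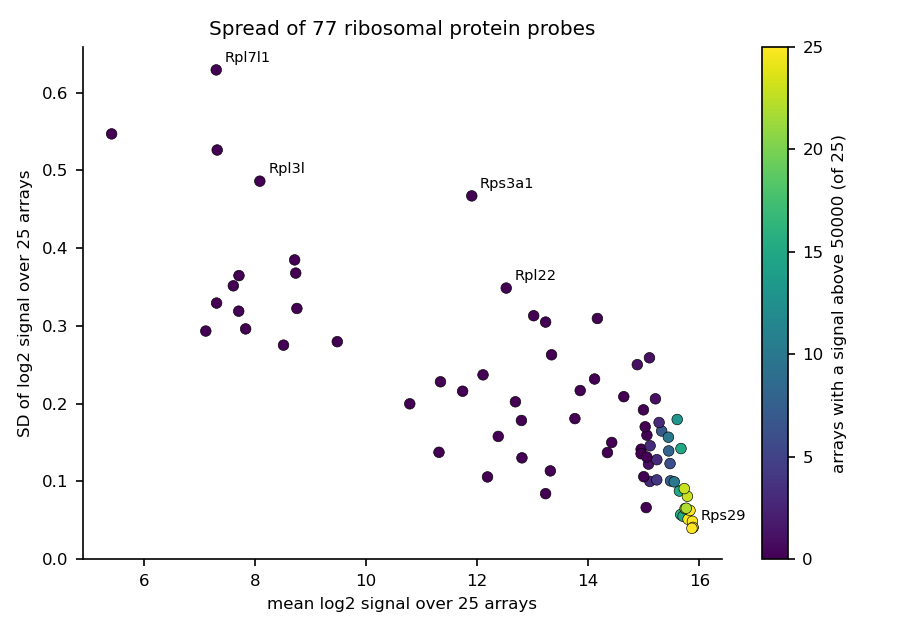
Standard deviation of log2 signal over the 25 arrays (vertical axis) against the mean log2 signal (horizontal axis) for the 77 kept member probes. Colour gives the number of arrays with a signal above 50000. The members have a median SD of 0.165, against 0.348 over all kept probes, which are not drawn.

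Arrays of the 6 groups differed in brightness before normalization. The median raw signal of the members was 27705 to 37320 on TMD, PMT and CPM arrays, 24781 to 36377 on DEHP and MPA arrays and 35864 to 35969 on PCB arrays, against 15891 to 22546 on E2, DHT and DMSO arrays. The members' share of all signal was 6.45% to 6.98% on TMD, PMT and CPM arrays, 6.50% to 6.96% on DEHP and MPA arrays, 7.35% to 7.91% on PCB arrays, 6.99% to 7.71% on T3, DEX and TCDD arrays and 6.54% to 7.00% on BPA arrays, against 7.05% to 8.12% on E2, DHT and DMSO arrays, so that both micromolar groups and BPA lay below the E2, DHT and DMSO arrays without overlap. Detected probes per array numbered 14451 to 16381. Markers of cell types differed between the groups as well. They are given as the log2 of the summed signal of a list, in which the brightest markers weigh most. Of 23 primitive and visceral endoderm markers 21 were kept, with Afp and Rbp4 detected on no array. Their value was 16.52 to 16.83 on DEHP and MPA arrays, 14.59 to 14.86 on TMD, PMT and CPM arrays and 14.92 to 14.97 on PCB arrays. It was 16.16 to 16.33 on T3, DEX and TCDD arrays, 13.63 to 13.68 on BPA arrays and 16.04 to 16.12 on E2, DHT and DMSO arrays. All 15 pluripotency and epiblast markers were kept, at 16.79 to 17.09 by this measure over all arrays. Of the other lists, fibroblast feeder markers (8 kept of 15) lay at 9.66 to 9.77 on TMD, PMT and CPM arrays and 10.87 to 11.01 on DEHP and MPA arrays, against 10.74 to 11.05 on E2, DHT and DMSO arrays. Trophoblast markers (5 kept of 6, with Hand1 detected on no array) lay at 10.22 to 10.50 on DEHP and MPA arrays, the lowest of all groups, and 11.48 to 11.79 on TMD, PMT and CPM arrays, against 11.82 to 12.17 on E2, DHT and DMSO arrays. 3 mesoderm markers and 1 erythroid marker were kept. In bulk RNA, fewer cells of a type and less RNA per cell cannot be told apart.

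The first comparison asked how ribosomal protein mRNAs differed after TMD, PMT and CPM from those of E2, DHT and DMSO cultures. After quantile normalization the calls went both ways: 25 member probes rose and 20 fell, and 32 passed the test in neither direction. This scaling gives every array the same distribution, and members fill much of its bright end. A shift of the whole family would be partly removed by it, so these counts cannot decide whether the family moved together. The 45 calls are 58.4% of the members, where 62% of all kept probes were called (31.9% higher and 30.1% lower). The arrays of the 2 groups did not overlap for 19 members higher (24.7%) and 17 lower (22.1%), where 19.2% and 19.1% of all probes did not. The median difference of the members was 0.02, against 0.01 over all probes. Their differences were smaller, with a median size of 0.229 against 0.392 over all probes, and 2 of 77 members (2.6%) exceeded a doubling or halving, against 10.4% of all probes. The split depends on the scaling: with each array centred on its median in place of quantile normalization 16 members were higher and 39 lower (71.4% of the members, where 61.6% of all probes were called), with a median of −0.19 for the members and −0.09 for all probes. With centring on bright probes outside the family 23 were higher and 32 lower (71.4%, where 60.1% of all probes were called), with medians of −0.05 and 0.06. Of the 45 calls, 32 held under every alternative setting. For the comparisons that follow these were 33 of 46 calls (DEHP and MPA), 8 of 19 (DEHP and MPA against TMD, PMT and CPM), 11 of 26 (T3, DEX and TCDD), 7 of 21 (PCB) and 5 of 19 (BPA). Beside these values, 18 of the 21 endoderm markers fell and none rose (median −1.04), as did 5 of the 8 feeder and 2 of the 5 trophoblast markers. Of the 15 pluripotency and epiblast markers 8 rose and 3 fell. TMD, PMT and CPM arrays were also brighter before normalization, and members near the ceiling compress. The part of the markers and of the ceiling in the result was not tested.

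Rps3a1, the small-subunit protein eS1, had the lowest adjusted p of the family. It read 12.19, 12.27 and 12.47 (lowest, median and highest) on the 6 TMD, PMT and CPM arrays, against 11.50 and 11.11 on E2, 11.29 and 11.20 on DHT and 11.75 on DMSO arrays. All 6 exposed arrays lay above all 5 others. The difference was 0.88 ± 0.07 (SE), or 1.84-fold higher (adjusted p = 8.21e-12). Rpl32 was 1.44-fold higher (0.53 ± 0.05, adjusted p = 1.58e-10), with a median of 15.06 and a highest value of 15.11 on TMD, PMT and CPM arrays, against 14.41 to 14.63 on E2, DHT and DMSO arrays. Rpl26, which in human cells binds the p53 mRNA, was 1.31-fold higher (0.39 ± 0.06, adjusted p = 2.09e-06). Rps10 (0.32 ± 0.05) and Rps21 (0.33 ± 0.05) also rose, though the call of Rps10 was lost under median centring (0.13, adjusted p = 0.127). Rpl36a, a large-subunit protein at the exit site for tRNA, rose by 0.63 ± 0.08 (1.55-fold, adjusted p = 9.6e-08). Of the 2 probes of Rps3, a DNA-repair endonuclease as well as a small-subunit protein, one rose (0.45 ± 0.09, adjusted p = 4.51e-05) and the other gave −0.05 ± 0.05 (adjusted p = 0.466).

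Rps27l, a paralog of Rps27 that p53 induces, moved the other way. It read 14.78, 14.89 and 14.98 (lowest, median and highest) on TMD, PMT and CPM arrays, against 15.36 and 15.10 on E2, 15.50 and 15.46 on DHT and 15.46 on DMSO arrays. The 2 groups did not overlap, and the signal was 1.42-fold lower (−0.50 ± 0.06, adjusted p = 6.54e-09). Rps15 (−0.43 ± 0.05, adjusted p = 5.8e-08), Rps26 (−0.38 ± 0.05, adjusted p = 6.18e-08), Rps6 (−0.36 ± 0.05, adjusted p = 6.63e-07), Rpl24 (−0.31 ± 0.05) and the dimmer probe of Rpl38 (−0.30 ± 0.06, adjusted p = 0.000169) were lower as well, as was the dimmer probe of Rpl28 (−0.54 ± 0.11, adjusted p = 7.88e-05), whose brighter probe gave −0.11 ± 0.05 (adjusted p = 0.0848). Rps6 is the substrate of the S6 kinases downstream of mTOR, and loss of one copy of Rpl24 or Rpl38 gives patterning defects in mice. The brighter Rpl38 probe lay above 50000 on all arrays and gave −0.07 ± 0.04 (adjusted p = 0.163). Rps19, the gene most often mutated in human Diamond-Blackfan anaemia, was not called by either of its probes (0.36 ± 0.17 and −0.06 ± 0.05). Rps19bp1 and Rps23rg1, which share only the name, moved too, by 0.58 ± 0.10 and −0.56 ± 0.12. The arrays of the 2 groups overlapped for Rps19bp1. Its means for E2, DHT and DMSO themselves spanned 0.81 (F-test, unadjusted p = 0.0017, adjusted p = 0.165).

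**Figure D2:**
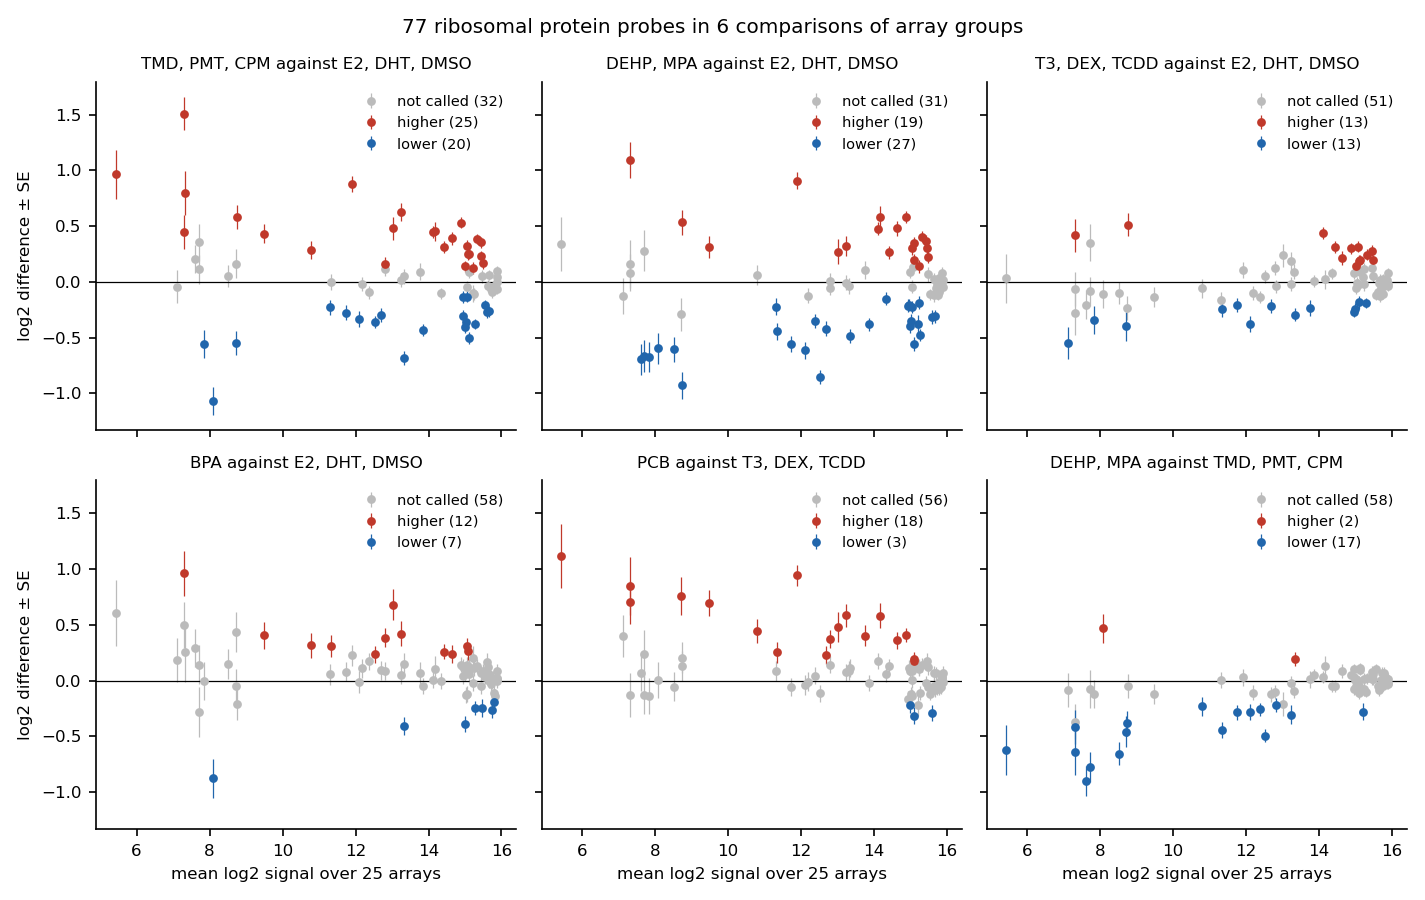
Log2 difference (vertical axis, bars of 1 SE) of each kept member probe against its mean log2 signal over the 25 arrays (horizontal axis) in the 6 comparisons between groups of arrays, red where called higher, blue where called lower (adjusted p under 0.05, limma) and grey otherwise. Calls lie on both sides of 0 in each comparison, and the PCB comparison has 18 calls higher and 3 lower.

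DEHP and MPA, the other micromolar group, were compared with the same E2, DHT and DMSO arrays, so the values after TMD, PMT and CPM are not independent of these. Of the 77 members, 19 rose and 27 fell. The 46 calls are 59.7% of the members, where 53.4% of all probes were called (26% higher and 27.4% lower). The arrays did not overlap for 16 members higher (20.8%) and 25 lower (32.5%), where 16.9% and 18.3% of all probes did not. The median member difference was −0.04, against −0.01 over all probes. The lean to lower signal was larger under the other scalings. DEHP and MPA arrays were brighter before normalization than E2, DHT and DMSO arrays, and members near the ceiling compress. The part of the ceiling in this lean was not tested. Median centring gave 9 higher and 45 lower (70.1% of the members, where 54.2% of all probes were called), with a median of −0.37 for the members and −0.11 for all probes. Centring on bright probes outside the family gave 15 higher and 41 lower (72.7%, where 51.1% of all probes were called), with medians of −0.22 and 0.03. Here 16 of the 21 endoderm markers rose and none fell (median 0.67). Of the 5 trophoblast markers 3 fell and 1 rose, and of the 8 feeder markers 4 fell and 1 rose. Of the 15 pluripotency and epiblast markers 7 rose and 3 fell. The part of these markers in the result was not tested.

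Rps3a1 read 12.22 and 12.49 on DEHP and 12.34 and 12.31 on MPA arrays, above all E2, DHT and DMSO arrays (11.11 to 11.75), a difference of 0.91 ± 0.08 or 1.88-fold (adjusted p = 1.02e-10). Rpl32 (0.58 ± 0.05, 1.5-fold) and Rpl26 (0.48 ± 0.07, 1.4-fold) rose, and Rps27l fell by 0.55 (SE 0.06, 1.47-fold lower, adjusted p = 1.38e-08). Rps6 (−0.35 ± 0.06), Rps15 (−0.38 ± 0.06), Rps26 (−0.48 ± 0.05) and the dimmer Rpl38 probe (−0.42 ± 0.07) were lower. All of these calls held with the same direction under median centring. One probe of Rps3 rose (0.58 ± 0.10, 1.5-fold, adjusted p = 7.49e-06) and the other gave −0.04 ± 0.06 (adjusted p = 0.573). Rps19bp1 (0.53 ± 0.11) was higher, with arrays that overlapped, and Rps23rg1 (−0.67 ± 0.14) lower.

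The large-subunit genes Rpl22, Rpl21 and Rpl28 had the lowest differences among the ribosomal proteins after DEHP and MPA. Rpl22, an RNA-binding protein of the large subunit, read 11.87 and 11.81 on DEHP and 11.90 and 11.90 on MPA arrays, against 12.75 and 12.51 on E2, 12.70 and 12.67 on DHT and 12.86 on DMSO arrays. The 4 arrays lay below every other array of the series. The difference was −0.85 ± 0.06, or 1.81-fold lower (adjusted p = 5.44e-12). Rpl21 is read by 3 probes, and all 3 were lower, by −0.69 ± 0.14, −0.66 ± 0.14 and −0.60 ± 0.11 (adjusted p = 0.000123, 0.000278 and 3.06e-05). The dimmer probe of Rpl28 read 8.09 and 8.40 on DEHP and 8.06 and 8.03 on MPA arrays, against 8.92 to 9.28 on E2, DHT and DMSO arrays, and was 1.9-fold lower (−0.93 ± 0.12, adjusted p = 1.85e-07). Its brighter probe gave −0.19 ± 0.06 (adjusted p = 0.0105), and −0.16 and −0.14 without the 1 uM DEHP and without the 100 uM MPA array, where the call was lost (adjusted p = 0.0526 and 0.0796).

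The direct comparison of DEHP and MPA with TMD, PMT and CPM, added after the values above had been seen, shares no control arrays. The doses of the 2 groups differ. It gave 19 calls (24.7% of the members), 2 higher and 17 lower, where 30.3% of all probes were called (13.8% higher and 16.5% lower). The arrays did not overlap for 1 member higher (1.3%) and 9 lower (11.7%), where 11.4% and 12.9% of all probes did not. The median member difference was −0.05, against −0.04 over all probes. The 3 Rpl21 probes led, at −0.90 ± 0.13, −0.78 ± 0.13 and −0.65 ± 0.10 (1.87-, 1.71- and 1.57-fold lower, adjusted p = 2.44e-06, 3.28e-05 and 7.77e-06). The first of them read 6.72 and 7.05 on DEHP and 7.22 and 7.07 on MPA arrays. It read 7.71, 7.96 and 8.05 (lowest, median and highest) on TMD, PMT and CPM arrays, with no overlap. This probe is dim beside the members, whose mean log2 signals have a median of 14.64, and what it reads was not examined. Rpl22 was 1.41-fold lower (−0.49 ± 0.06, adjusted p = 7.95e-08), also with no overlap. Rps3a1 (0.03 ± 0.07, adjusted p = 0.817), Rpl32 (0.05 ± 0.05, adjusted p = 0.48) and Rps27l (−0.05 ± 0.06, adjusted p = 0.551) did not pass the test in this comparison. The 2 calls higher were Rpl3l (0.47 ± 0.13) and one probe of Rpl29 (0.20 ± 0.06), the second lost under both centrings and without the 100 uM DEHP (0.13), 1 uM MPA (0.18) or 0.1 uM CPM (0.17) array. The endoderm markers were 20 higher and none lower of 21 (median 1.76), and the feeder markers 3 higher and 1 lower of 8. The trophoblast markers were 1 higher and 1 lower of 5, and the pluripotency and epiblast markers 5 higher and 5 lower of 15. The part of these markers was not tested.

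**Figure D3:**
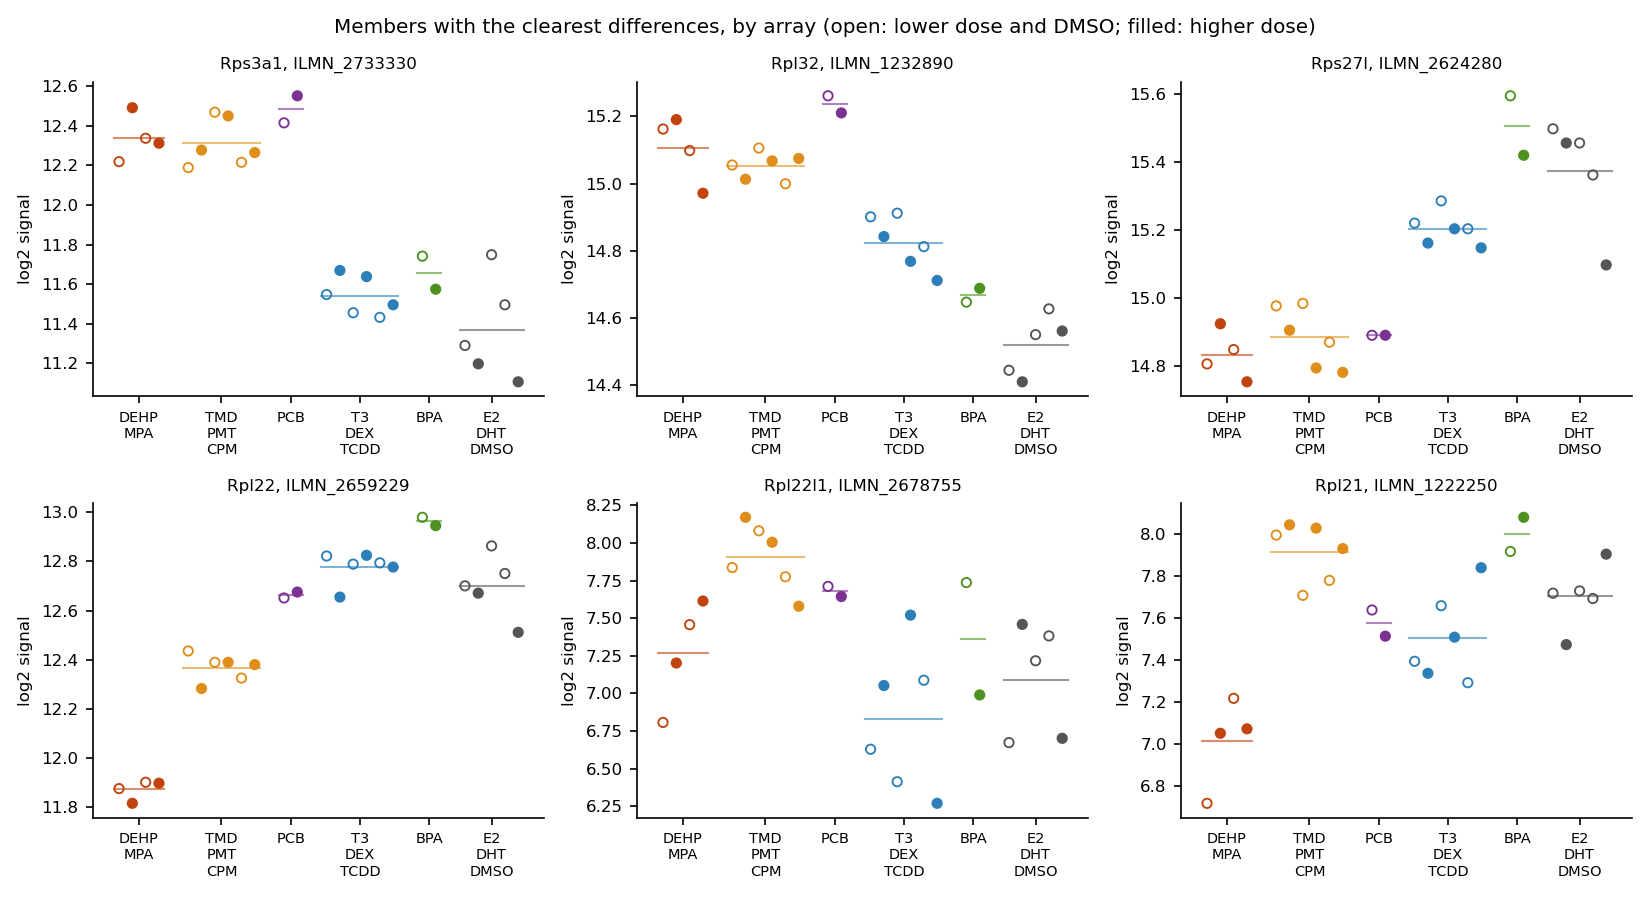
Log2 signal of selected members on each of the 25 arrays, grouped by chemicals (horizontal axis), with open symbols for the lower dose and for DMSO, filled symbols for the higher dose and a line at the mean of each group. Rps3a1 is between 12.19 and 12.55 on all DEHP, MPA, TMD, PMT, CPM and PCB arrays and at most 11.75 on the other arrays.

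After T3, DEX and TCDD, set against the same E2, DHT and DMSO arrays, differences were smaller. There were 26 calls, 13 higher and 13 lower (33.8% of the members, where 29.3% of all probes were called, 15.5% higher and 13.8% lower), and no member exceeded a doubling or halving. The arrays of the 2 groups did not overlap for 9 members higher and 9 lower (11.7% each), where 5.72% and 5.47% of all probes did not overlap in these directions. The median was −0.01 for the members and 0.01 for all probes. Median centring gave 5 higher and 19 lower (31.2% of the members, where 27.9% of all probes were called), with a median of −0.12 for the members and −0.05 for all probes. Rps10 and Rps21 rose by 0.32 each (SE 0.05 each, adjusted p = 4.74e-05 and 4.99e-05). Rps10 read 14.41 to 14.56 on T3, DEX and TCDD arrays and 14.09 to 14.22 on E2, DHT and DMSO arrays, with no overlap. Rpl32 rose by 0.30 ± 0.05, Rpl3, which lies at the peptidyl transferase centre, by 0.28 ± 0.05, and Rpl26 by 0.22 ± 0.06. Under median centring the calls of Rps10 (0.19, adjusted p = 0.0637) and Rpl26 (0.10, adjusted p = 0.379) were lost. Rpl24 was lower (−0.27 ± 0.05, adjusted p = 0.000286), as were Rps26 (−0.19 ± 0.05) and a probe of Rps13 (−0.55 ± 0.15, adjusted p = 0.00539), whose other probe gave 0.08 ± 0.05 (adjusted p = 0.278). Rps19bp1 (0.51 ± 0.10) was higher, with arrays that overlapped. Of the genes called in the micromolar groups, Rps3a1 gave 0.11 ± 0.07 (adjusted p = 0.255), Rps6 −0.05 ± 0.05 (adjusted p = 0.463) and Rpl22 0.05 ± 0.06 (adjusted p = 0.535). Among the endoderm markers 7 rose and 1 fell, among the feeder markers 3 fell and none rose, and among the trophoblast markers 1 rose and 1 fell. Of the 15 pluripotency and epiblast markers 4 rose and 3 fell. The part of these markers was not tested.

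PCB was set against T3, DEX and TCDD, which were given at the same 1 and 10 nM. In this comparison the calls went mostly one way: 18 member probes rose and 3 fell, so that 23.4% of the members rose, where 14.5% of all probes did, and 3.9% fell, where 13.8% of all probes did. The arrays did not overlap for 23 members higher (29.9%) and 9 lower (11.7%), where 18.8% and 19.7% of all probes did not. In either direction 27.3% of the members and 28.4% of all probes were called. The median difference was 0.07 for the members and −0.01 for all probes. Both centrings kept the lean, with 27 higher and none lower under the median (35.1% of the members, where 28.7% of all probes were called) and 29 higher and 2 lower on bright probes outside the family (40.3%, where 28.1% of all probes were called). Without the 10 nM PCB array 10 member calls were left, and without the 1 nM E2 array there were 25. The endoderm markers were 17 lower and none higher of 21 (median −1.03) and the feeder markers 3 lower and 1 higher of 8. The pluripotency and epiblast markers were 5 higher and 3 lower of 15, and the trophoblast markers 1 lower and none higher of 5. The part of these markers was not tested.

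Rps3a1 read 12.42 and 12.55 on PCB arrays, against 11.43, 11.52 and 11.67 (lowest, median and highest) on T3, DEX and TCDD arrays, 1.92-fold higher (0.94 ± 0.09, adjusted p = 7.71e-09). The PCB arrays lay at the level of the micromolar groups for this gene. Rpl32 rose by 0.41 ± 0.06 (1.33-fold, adjusted p = 1.5e-05), Rpl26 by 0.36 ± 0.08 (1.28-fold), Rpl36a by 0.59 ± 0.11 (1.5-fold, adjusted p = 0.000105) and the dimmer probe of Rpl30 by 0.69 ± 0.12 (1.62-fold, adjusted p = 3.8e-05). Rps25, which certain viral RNAs need to start translation inside the message, rose by 0.48 ± 0.14 (adjusted p = 0.00839). 2 of the 3 probes of Rps24 rose (0.76 ± 0.17 and 0.44 ± 0.11), and the brightest gave −0.22 ± 0.10 (adjusted p = 0.0984). The 3 that fell were Rps27l (−0.31 ± 0.07, adjusted p = 0.00174, lost under both centrings), Rps4x (−0.29 ± 0.07) and Rpl36al (−0.22 ± 0.07, at 0.0070 and 0.012 under the 2 centrings). One probe of Rps3 rose as well (0.58 ± 0.11, adjusted p = 0.000252), and the other gave 0.00 ± 0.07. Rpl14, detected on the 1 nM PCB array and on none of the 6 T3, DEX and TCDD arrays, was among the 18 calls, and 17 were left when it was set aside. With 2 PCB arrays, several of these calls rested on 1 of them. Without the 1 nM array, Rps25 (0.28, adjusted p = 0.274) and Rpl36al (−0.19, adjusted p = 0.169) were not called. Without the 10 nM array, the Rps24 probe at 0.44 (now 0.28, adjusted p = 0.19), Rps4x (−0.28, adjusted p = 0.0561) and Rpl36al (−0.24, adjusted p = 0.104) were not called. Rpl36al was also lost without the 10 nM DEX array (−0.20, adjusted p = 0.0545), and Rps4x under both centrings (−0.15 each).

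BPA, given in picomolar doses, was compared with the E2, DHT and DMSO arrays of the same normalization set. It had 12 member probes higher and 7 lower. The 19 calls are 24.7% of the members, where 38.6% of all probes were called (21.2% higher and 17.5% lower). The arrays did not overlap for 21 members higher (27.3%) and 9 lower (11.7%), where 24.6% and 20.1% of all probes did not. The median was 0.09 for the members and 0.06 for all probes, and the median of all probes shifted to −0.05 under median centring, with 7 members higher and 22 lower (37.7% of the members, where 40.1% of all probes were called) and a median of −0.07 for the members. Without the 1 pM array 10 member calls were left. Rps25 read 13.44 and 13.29 on BPA arrays, against 13.27 and 12.58 on E2, 12.45 and 12.67 on DHT and 12.57 on DMSO arrays, 1.6-fold higher (0.68 ± 0.14, adjusted p = 0.000316). One E2 array came close to the BPA arrays. Rps21 (0.31 ± 0.07), Rpl13a (0.39 ± 0.09) and the dimmer Rpl30 probe (0.41 ± 0.12) rose, and Rps26 fell by 0.24 (SE 0.06) and a probe of Rps2 by 0.26 (SE 0.07, lost without the 1 pM array at −0.19). Without the 100 pM array the calls of Rps26 (−0.21, adjusted p = 0.066) and of the dimmer Rpl30 probe (0.31, adjusted p = 0.152) were lost, and under median centring that of Rps21 (0.16, adjusted p = 0.226). Rps3a1 gave 0.23 ± 0.10 (adjusted p = 0.0628). BPA had the lowest endoderm sums of all arrays, with 20 of 21 markers lower (median −2.50). Of the feeder markers 3 of 8 were lower and 2 higher, and of the trophoblast markers 2 of 5 lower and 1 higher. Of the 15 pluripotency and epiblast markers 7 were higher and 4 lower. The part of these markers in the result was not tested.

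In several comparisons a paralog and its parent gene were called in opposite directions. Rpl22l1, whose mRNA Rpl22 represses in mice, read 7.58, 7.92 and 8.17 (lowest, median and highest) on TMD, PMT and CPM arrays, against 7.38 and 6.70 on E2, 6.67 and 7.46 on DHT and 7.22 on DMSO arrays. It was 1.74-fold higher with no overlap (0.80 ± 0.20, adjusted p = 0.000898), while Rpl22 was 1.28-fold lower in the same comparison (−0.36 ± 0.06, adjusted p = 3.47e-06). After DEHP and MPA, where Rpl22 was lowest, Rpl22l1 read 6.81, 7.20, 7.46 and 7.61 and gave 0.16 ± 0.22 (adjusted p = 0.549). Set directly against TMD, PMT and CPM, DEHP and MPA had Rpl22l1 lower by −0.64 ± 0.20 (adjusted p = 0.0168) together with Rpl22, a call lost without the lower-dose array of either chemical. After PCB, Rpl22l1 was 1.8-fold higher than after T3, DEX and TCDD (0.85 ± 0.26, adjusted p = 0.0139), and this was lost without either PCB array, while Rpl22 gave −0.11 ± 0.08 (adjusted p = 0.271).

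Rpl36a and Rpl36al encode near-identical proteins. Rpl36a read 13.39, 13.52 and 13.69 (lowest, median and highest) on TMD, PMT and CPM arrays, against 13.10 and 12.52 on E2, 12.97 and 12.80 on DHT and 12.98 on DMSO arrays. Rpl36al read 14.70, 14.86 and 15.06 on TMD, PMT and CPM arrays, against 15.27, 15.39, 15.32, 15.25 and 15.22 on the E2, DHT and DMSO arrays. The 2 genes stood apart from those arrays in opposite directions, Rpl36a by 0.63 ± 0.08 and Rpl36al by −0.41 ± 0.06 (adjusted p = 2.56e-07). After DEHP and MPA the differences were 0.32 ± 0.09 and −0.40 ± 0.06, and after BPA 0.42 ± 0.11 and −0.39 ± 0.08, all called, with Rpl36a after DEHP and MPA lost under median centring and after BPA lost without the 1 pM array. After T3, DEX and TCDD Rpl36a gave 0.19 ± 0.08 (adjusted p = 0.078) and Rpl36al −0.24 ± 0.06 (adjusted p = 0.00158).

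Rpl3 rose after TMD, PMT and CPM (0.35 ± 0.05, adjusted p = 3.08e-07, against 0.11 and 0.201 under median centring), and Rpl3l, its striated-muscle paralog, was 2.09-fold lower (−1.06 ± 0.13, adjusted p = 1.92e-08). Rpl3l read 7.26, 7.47 and 7.68 (lowest, median and highest) on these arrays, against 8.61, 8.86, 8.58, 8.41 and 8.38 on the E2, DHT and DMSO arrays, with no overlap. It was lower after DEHP and MPA (−0.60 ± 0.14) and after BPA (−0.88 ± 0.17, lost without the 1 pM array) too, and gave −0.11 ± 0.13 after T3, DEX and TCDD. Rps4x fell by 0.27 (SE 0.06) after TMD, PMT and CPM and by 0.31 (SE 0.06) after DEHP and MPA, while its retrogene Rps4l passed the test in none of these comparisons (differences of −0.03 to 0.07). Rpl7l1, a nucleolar relative of Rpl7 matched by name, had the largest difference of the member probes after TMD, PMT and CPM. One probe was 2.85-fold higher (1.51 ± 0.15, adjusted p = 4.62e-10), and the other gave −0.01 ± 0.06 (adjusted p = 0.851). The first probe was also called higher after DEHP and MPA (1.10 ± 0.16), after BPA (0.96 ± 0.20), after PCB against T3, DEX and TCDD (0.70 ± 0.19, lost without the 10 nM PCB array at 0.59, adjusted p = 0.132) and after T3, DEX and TCDD (0.42 ± 0.15). The last call was lost without any 1 of 4 arrays (1 nM DHT, and 10 nM T3, DEX or TCDD), at differences of 0.32 to 0.37.

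**Figure D4:**
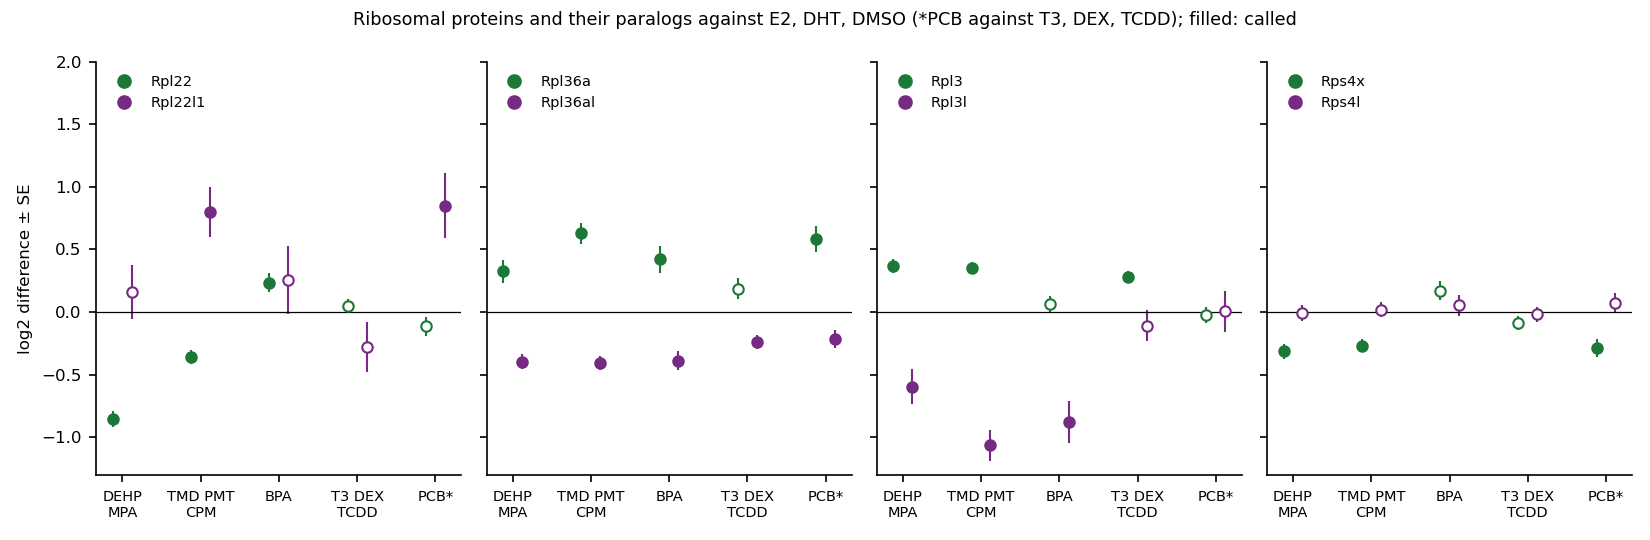
Log2 difference (points, with bars of 1 SE) of 4 ribosomal protein genes and their paralogs in 5 comparisons (horizontal axis), against E2, DHT and DMSO or, for PCB, against T3, DEX and TCDD, filled where called. After TMD, PMT and CPM the paralog and its parent lie on opposite sides of 0 for Rpl22l1 (0.80) and Rpl22 (−0.36), for Rpl36al (−0.41) and Rpl36a (0.63), and for Rpl3l (−1.06) and Rpl3 (0.35).

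Probes of 1 gene did not always tell the same story. 16 genes had more than 1 kept probe, and after TMD, PMT and CPM all probes of a gene shared 1 call in 5 of them, while Rpl23, Rpl29 and Rpl31 had probes called in opposite directions. After DEHP and MPA these 3 genes and Rpl27a had opposite calls, and after T3, DEX and TCDD only Rpl29. One Rpl29 probe read 12.87, 13.02 and 13.14 (lowest, median and highest) on TMD, PMT and CPM arrays, against 13.66, 13.76, 13.72, 13.72 and 13.65 on the E2, DHT and DMSO arrays (−0.68 ± 0.06, adjusted p = 5.57e-11). The other read 14.15, 14.22 and 14.30 on TMD, PMT and CPM arrays, against 13.83, 14.04, 13.60, 13.73 and 13.72 on those arrays (0.45 ± 0.05, adjusted p = 3.24e-08). Both probes separated the groups without overlap, in opposite directions. 2 Rpl31 probes were lower (−0.28 and −0.33) and the third, near the ceiling, higher (0.12, and −0.05 under median centring). The direction of Rpl29 and Rpl31 as genes is therefore not given. The Rpl21 probes, by contrast, gave 1 answer, with 3 of 3 lower after DEHP and MPA and 3 of 3 not called after TMD, PMT and CPM.

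**Figure D5:**
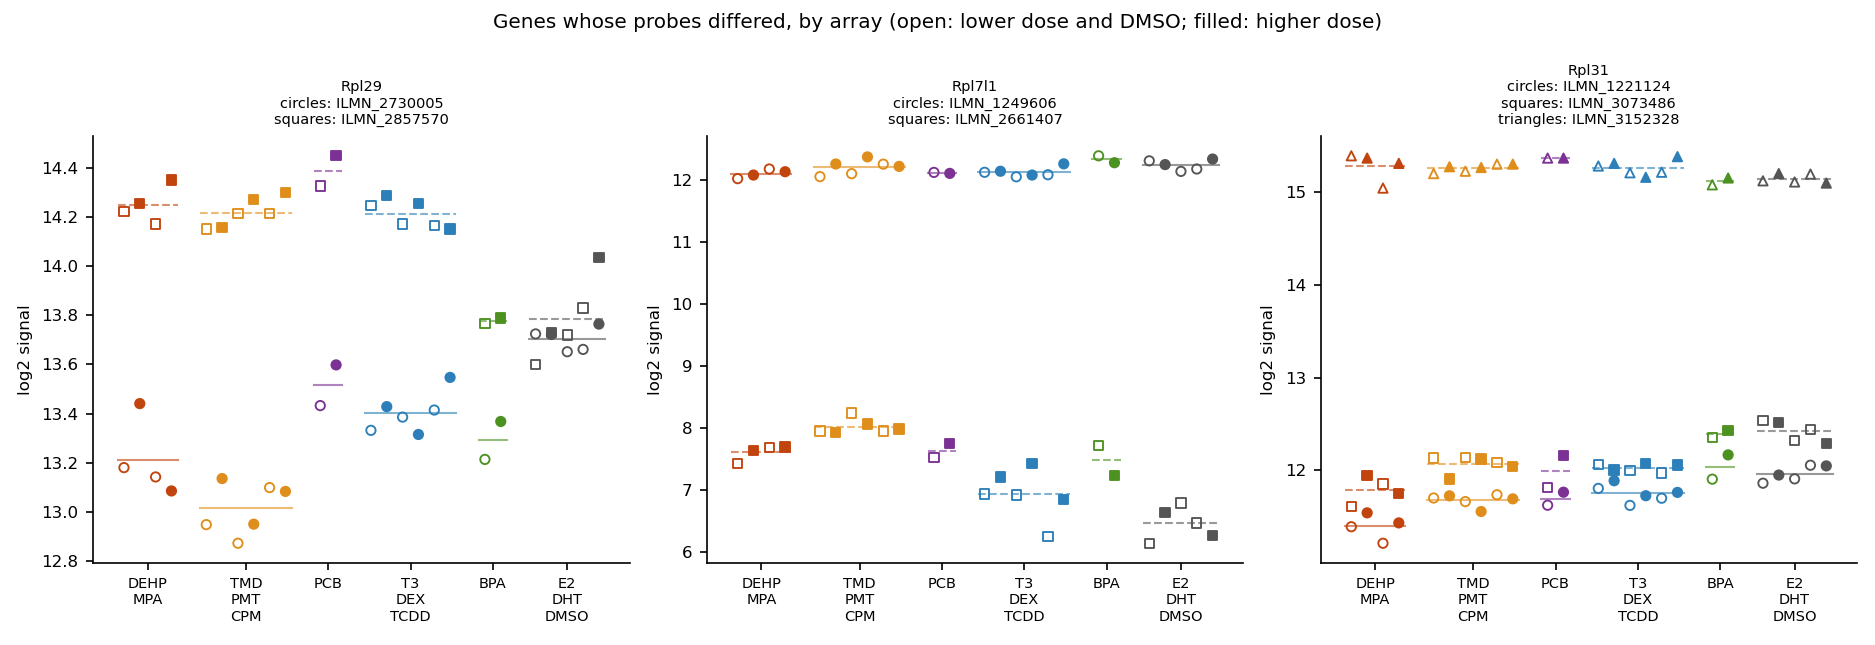
Log2 signal on the 25 arrays for genes whose probes differed, with 1 marker shape per probe, open for the lower dose and DMSO and filled for the higher dose. The 2 Rpl29 probes move apart between TMD, PMT and CPM arrays (medians 13.02 and 14.22) and E2, DHT and DMSO arrays.

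Chemicals within a group were also compared with each other. No member probe and no probe of the array was called by limma among TMD, PMT and CPM, among E2, DHT and DMSO, or between DEHP and MPA, where 3, 7 and 7 members had an unadjusted p under 0.05, and 604, 2554 and 889 of all probes. Among T3, DEX, TCDD and PCB 18 members differed (23.4%, where 18.3% of all probes did). They were led by Rps3a1, Rpl32, Rpl36a, Rpl30 and Rps24 (adjusted p = 1.48e-07, 0.000176, 0.000243, 0.000518 and 0.00181). The test uses the arrays of the PCB comparison and is not independent of it. Rpl14, which passed the filter through the arrays where it is high, is included in the count of 18. This count was 6 without the 10 nM PCB array and 10 without the 1 nM one. The higher dose did not differ from the lower one by the same test in the nanomolar or the micromolar chemicals (0 calls among members and among all probes, with 6 and 2 members at an unadjusted p under 0.05), and the difference between the 2 dose effects gave 0 calls with 1 member at an unadjusted p under 0.05. The root mean square difference over the members had a median of 0.182 between the doses of a chemical, which are single arrays. Between chemicals, each taken as the mean of its arrays, the median was 0.144 within 1 group and 0.306 between groups. Means of 2 arrays vary less than single arrays, so the value for doses cannot be set against the other 2. The groups were drawn with earlier results of these data known. Few calls and small differences within a group follow in part from that choice and lend the grouping no support.

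Members did not share 1 profile. Over the 25 arrays the correlation of 2 member probes had a median of 0.05 and ranged from −0.85 to 0.94, with 16.9% of pairs above 0.5 and 10.8% below −0.5. The first principal component of the members held 45.4% of their variance and the second 19.4%. DEHP, MPA, TMD, PMT, CPM and PCB arrays scored 0.83 to 1.85 on the first and all other arrays below 0. On the second, DEHP and MPA arrays scored −1.67 to −1.001 and BPA arrays 1.60 and 1.99. These are descriptions over arrays that share groups and scaling.

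Genes that make and regulate ribosomes were followed beside the ribosomal proteins. Of 50 kept biogenesis factors (of 59), 33 rose and 8 fell after TMD, PMT and CPM (median 0.33, against 0.01 over all probes), among them Bop1 (1.92 ± 0.11) and Pes1 (1.44 ± 0.09), partners in large-subunit assembly, and Emg1 (1.43 ± 0.08), a methyltransferase of the small-subunit rRNA. Of 14 kept genes of RNA polymerase I transcription (of 15 with a probe), 9 rose and 2 fell (median 0.63), with Tcof1 at 1.63 ± 0.11 and Rrn3 at 1.06 ± 0.08. In this comparison 31.9% of all probes were called higher and 30.1% lower. After DEHP and MPA the counts were 17 higher and 10 lower for biogenesis and 7 higher and 4 lower for polymerase I (all probes: 26% and 27.4%). After BPA they were 18 higher and 5 lower, and 7 higher and 1 lower (all probes: 21.2% and 17.5%). After T3, DEX and TCDD they were 8 higher and 7 lower, and 5 higher and 2 lower (all probes: 15.5% and 13.8%). In the direct comparison of DEHP and MPA with TMD, PMT and CPM 22 biogenesis factors fell and none rose, and 5 polymerase I genes fell and none rose, Pes1 by −0.85 ± 0.10 and Tcof1 by −0.70 ± 0.12. Of all probes, 13.8% were higher and 16.5% lower there. After PCB the counts against T3, DEX and TCDD were 12 higher and 3 lower, and 3 higher and 1 lower (all probes: 14.5% and 13.8%).

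Translation factors with TOP mRNAs (16 kept of 17 with a probe) had 9 higher and 2 lower after TMD, PMT and CPM (all probes: 31.9% and 30.1%). Among them Eif3k gave 1.27 ± 0.08, Pabpc1 1.01 ± 0.09 and Eef1a1 −0.03 ± 0.05 (adjusted p = 0.582). They had 6 higher and 3 lower after DEHP and MPA (all probes: 26% and 27.4%), and 6 higher and 0 lower after BPA (all probes: 21.2% and 17.5%). Of the acidic stalk proteins and Rpsa (4 kept of 6), Rplp0 gave 0.22 ± 0.07 after TMD, PMT and CPM and −0.31 ± 0.08 after DEHP and MPA, both called, and −0.53 ± 0.07 between these groups (adjusted p = 7.68e-07). Rplp0 thus lay on the side of Rpl21 and Rpl22 in the direct comparison. Of 12 kept regulators of ribosomal protein mRNA (of 16), 7 rose and 4 fell after TMD, PMT and CPM, with Myc at 0.88 ± 0.18, Mtor at −1.04 ± 0.09 and Larp1 at 0.44 ± 0.12. After DEHP and MPA 4 of the regulators rose and 4 fell, and after BPA 4 rose and 2 fell, beside the same shares of all probes.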

How the data were processed

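Expression was measured on Illumina Mouse WG-6 BeadChips in 25 RNA samples, 1 array per condition. The deposited table of the scanner holds, per the file headers, an intensity and a detection p-value per probe, not normalized by the authors; a second table of the authors holds intensity normalized in GeneSpring in 2 separate sets and served only to check the arrays. The version of the scanner software is not given in the sources used here. Columns were tied to samples by the line above the column names, and 0 columns were left unmapped. With limma 3.58.1 in R 4.3.3, background was corrected with nec (detection p, offset 16), all 25 arrays were quantile-normalized and log2 was taken; a probe needed a detection p under 0.01 on 2 arrays or more, which 19140 of 45281 passed. Each chemical was a group of 2 doses and DMSO a group of 1, which left 12 residual degrees of freedom (9 in the fit of dose, with chemical as a block). The spread is therefore that between doses, not between cultures. Contrasts between means of chemicals were tested with eBayes (trend), the threshold being 0.05 after adjusting p-values by Benjamini-Hochberg across the 19140 probes. The fit was tested on simulated data with 200 changed probes. The number of arrays limits the precision. Figures were drawn with matplotlib 3.10.9.

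Probe symbols came from a probe-to-gene table, and all 89 member probes matched RefSeq. The members, gene lists, array groups, the setting apart of PCB and the genes with printed sequences were chosen with earlier results of these data known. The rule for named genes took the called members with the 5 largest differences each way, the paralogs and their parents, a few genes with known roles and the brightest and dimmest members, of which the text describes a part; examples from the lists and a few further members were chosen after their values were seen. Alternatives were median centring, centring on bright probes outside the family, other background and filter settings, eBayes without trend and leaving out each array.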

Additional observations from a re-analysis of the deposited data

Results flagged for a closer look

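Among 76 groups of arrays examined for a sample far from the others (17 member probes and 2 summaries), 2 had one, where chance gives about 1 in 20. Rpl22 on the 10 nM DEX array read 12.65 in log2 signal, the lowest of the 6 T3, DEX and TCDD arrays, with the nearest at 12.78 (12.7769). Rpl26 on the 100 uM DEHP array read 14.94, the highest of the 4 DEHP and MPA arrays, with the nearest at 14.81. No other result was flagged.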

How the results depend on the processing

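Of the recomputed counts of member calls, 399 stayed within 1.5 times the reported count, 9 moved further and 1 that was 0 no longer was. For BPA against E2, DHT and DMSO, median centring gave 29 (7 higher, 22 lower) and centring on bright probes outside the family 32 (13 higher, 19 lower), beside 19. Among T3, DEX, TCDD and PCB these gave 28 and 35, and eBayes without trend 6, beside 18. Leaving out 1 array at a time gave 42 to 47 calls for TMD, PMT and CPM, 42 to 48 for DEHP and MPA, 22 to 30 for T3, DEX and TCDD, 10 to 25 for BPA, 10 to 25 for PCB, 13 to 19 for DEHP and MPA against TMD, PMT and CPM, 6 to 19 among T3, DEX, TCDD and PCB, 0 to 7 among E2, DHT and DMSO (7 without the 1 nM E2 array), and 0 to 0 among TMD, PMT and CPM, between DEHP and MPA and for dose. Splits under median centring and bright-probe centring stand with each comparison, except for T3, DEX and TCDD on bright probes (12 higher, 12 lower) and for BPA above. Of the called members, 5598 recomputed values kept direction and threshold, 257 lost the threshold and 9 changed sign. Under median centring the sign changed after TMD, PMT and CPM for Rps14 (−0.084), Rps16 (−0.010), one probe of Rpl31 (−0.051) and one of Rpl27a (−0.032), after DEHP and MPA for Rps14 (−0.035), the same Rpl31 probe (−0.049) and one probe of Rpl27a (−0.0044), and after PCB for Rpl36al (0.0070), which also changed sign on bright probes (0.012). The causes were not tested beyond what each setting changes. The authors' normalized table was not run for comparisons across its 2 sets. The labels give no replicate numbers to pair arrays by; with the dose level as a term across chemicals the counts were 46, 46, 27, 19 and 23 for TMD, PMT and CPM, for DEHP and MPA, for T3, DEX and TCDD, for BPA and for PCB, and dose was tested with the 2 doses paired within each chemical. The ceiling of the scanner limits the brightest members, and 1 array per condition limits all of them.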

Other observations

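The kept probes outside the family whose signal ran closest to the median of the member probes over the 25 arrays were those of Bzw2 (Pearson r = 0.924), Lig1 (r = 0.911) and Srrm1 (r = 0.897), with 2 unnamed probes at 0.921 and 0.91. These correlations are descriptions over arrays that share groups and normalization.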
